A study of Komagataella phaffii with 32 samples.

Results

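The genes described here are aminoacyl-tRNA synthetases and translation factors of the methylotrophic yeast Komagataella phaffii, followed by RNA sequencing while cultures met alkaline medium. They were chosen by annotation and not by expression. A gene was taken where its description in the authors' comparison table named a tRNA synthetase, or where its symbol began with TIF, SUI, GCD, GCN, EFT, EFB, YEF or SUP followed by a digit, and GCN4 was left out. This gave 58 genes, of the 4581 in the comparison table and the 5040 with expression values. The description chose 33 of them and the symbol the other 25. The set does not hold every synthetase. HTS1, GRS1, SLM5 and MSM1 are described as tRNA ligases without the word synthetase, so the rule missed them and no count here includes them. By role, 21 were cytosolic-type synthetases, 9 mitochondrial synthetases, 12 initiation factors, 5 subunits of eIF2B or eIF2 gamma, 2 regulators of the kinase Gcn2, 1 elongation factor and 2 termination factors. The last 6 met the rule but belong to none of these roles. A synthetase was counted as mitochondrial by its symbol or description and as cytosolic-type otherwise. Genes without such a name may therefore be misplaced.

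Aminoacyl-tRNA synthetases join each amino acid to its transfer RNA, and yeasts make many of them from separate genes for the cytosol and for the mitochondrion. Translation begins when eIF2, bound to GTP, brings the initiator tRNA to the small ribosomal subunit, and eIF2B recharges eIF2 with GTP after each round. In Saccharomyces cerevisiae, Gcn1 and Gcn20 help the kinase Gcn2 to sense uncharged tRNA and to slow initiation by phosphorylating eIF2 alpha, and the release factors Sup45 and Sup35 end the chain at a stop codon.

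The series asks what the transcription factors Crz1, which calcineurin activates in other yeasts, and Rim101, which acts in the alkaline pH response of fungi, contribute to the reaction to alkaline medium. The wild type was strain X-33 (the series text names GS115), and its isogenic derivatives were PJA-001, with genotype crz1_559, and PJA-007, with genotype rim101_117; what those alleles do to the genes is not stated in the labels. All strains grew at 28 °C in rich medium with glycerol and were resuspended in medium buffered with TAPS. Time 0 (T0) was taken at pH 5.5 just after resuspension, and T15, T30 and T60 at pH 8.0 after 15, 30 and 60 min. The wild type (WT) and crz1 had 3 libraries per time and rim101 had 2, or 32 libraries in all, in 12 groups. The later times have no pH 5.5 library, so pH and time after resuspension cannot be told apart. The labels number the replicates without saying that they came from separate cultures, so the p-values measure the spread between these samples, which may be technical.

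Values were RPKM, reads scaled to the length of the gene and the depth of the library, so levels can be compared between genes. The depth could be read from the steps between low values in 30 libraries and ran from 4.95 M to 16.5 M reads, with a median of 7.71 M. The libraries fell into types. In 9 of them the median of the tested genes was 46.6 to 56.6 RPKM, and in the other 23 it was 21.0 to 35.4 RPKM. The 9 higher-median libraries were all taken at pH 8.0. They were replicate 1 of WT T30 and replicates 1 and 2 of WT T60, replicate 1 of crz1 at each later time, and in rim101 both T30 libraries and replicate 2 of T15. At pH 8.0, RIM101 mRNA was at 24.3 to 42.1 RPKM in rim101, below the 102.6 to 151.5 RPKM of WT and the 87.9 to 131.5 RPKM of crz1, with no overlap. At T0 it was at 25.9 and 31.4 RPKM in rim101, inside the WT range of 20.5 to 45.7 RPKM. CRZ1 mRNA ran from 21.6 to 54.6 RPKM in crz1 and from 16.6 to 34.3 RPKM in WT, which overlap and do not set crz1 apart.

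At pH 5.5 a helicase and an elongation factor stood far above the other mRNAs of the set. In WT at T0, TIF2, the RNA helicase eIF4A, was at 3529 ± 700 RPKM (SD, n = 3) and YEF3, the fungal elongation factor 3, at 1812 ± 499 RPKM. Next came SUI1-1, which encodes eIF1 of start codon selection, at 509 ± 330 RPKM and GCD11, the eIF2 gamma GTPase, at 507 ± 74.9 RPKM, a pair that did not differ beyond its spread. The 12 initiation factors had a median of 288 RPKM and a range from 68.0 to 3529 RPKM. The 21 cytosolic-type synthetases had a median of 79.7 RPKM and reached 276 RPKM in SES1, the seryl-tRNA synthetase. The lowest was PAS_chr2-1_0123 at 6.58 RPKM, whose compartment is not given. The 4 eIF2B subunits that met the rule were low beside eIF2 itself, with GCD6 at 29.1, GCD1 at 26.6, GCN3 at 26.2 and GCD2 at 16.1 RPKM. No gene of the set is described as the beta subunit of eIF2B. GLN4, the glutaminyl-tRNA synthetase, was among the lowest cytosolic-type synthetases at 9.35 ± 0.804 RPKM.

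The mitochondrial synthetases were lower than their cytosolic partners. The 9 placed in this role had a median of 5.53 RPKM at T0. The highest of them, MSW1 for tryptophan, reached 20.1 ± 4.22 RPKM. PAS_chr1-4_0558, a phenylalanyl-tRNA synthetase by description, stood at 58.4 ± 2.51 RPKM. Its compartment is not given, and it was counted as cytosolic-type only for lack of a mitochondrial name. Where both genes for an amino acid could be set side by side, the cytosolic level was 20.6 times the mitochondrial one for serine (SES1 and DIA4), 19.8 times for tyrosine (TYS1 and MSY1), 13.7 times for proline (PAS_chr1-1_0391 and AIM10) and 8.85 times for aspartate (DPS1 and MSD1). It was 6.57 times for leucine (CDC60 and NAM2) and 4.52 times for tryptophan (WRS1 and MSW1). For threonine the ratio of THS1 to MST1 was 103.7, but the MST1 mean of 1.13 RPKM is near 0. MST1 and MSD1 were each listed at 0 in 1 of the 3 libraries. MSK1, the second lysyl-tRNA synthetase, was listed at 0 in all 3 WT T0 libraries and in 19 of 32 overall. It fell under the minimum mean of 1 RPKM and was the only one of the 58 not tested. In 52 of the 58, every library was above 0.

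**Figure D1:**
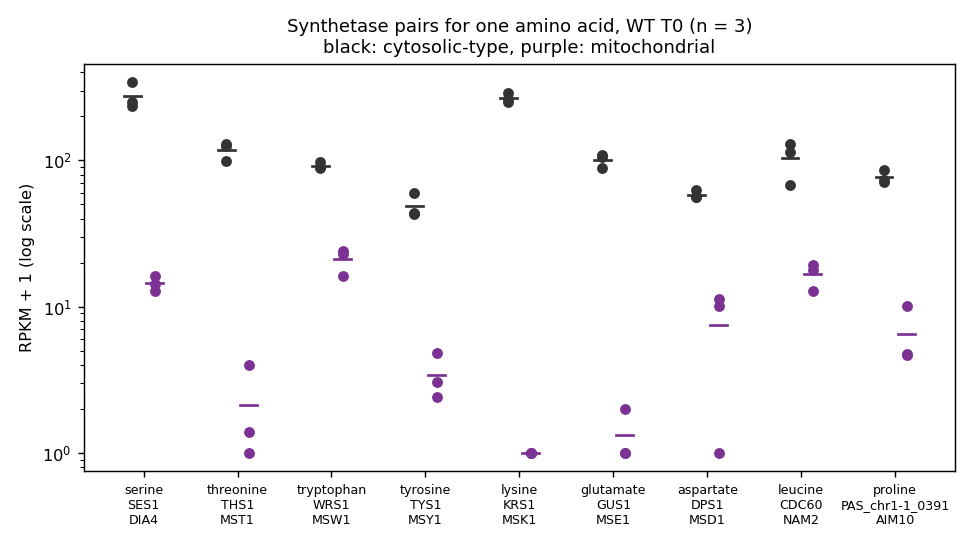
RPKM + 1 on a log axis in the 3 WT libraries at T0 (points) and their mean (bars) for 9 amino acids with a cytosolic-type synthetase gene (black) and a mitochondrial one (purple). The cytosolic mean lies above the mitochondrial one in every pair shown, by 4.52 times for tryptophan, 20.6 times for serine and 103.7 times for threonine, whose MST1 is near 0.

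After the move to pH 8.0 in WT, more of these genes rose than fell. At T15, 13 of the 57 tested rose and 2 fell, where 13.4% of all 4226 genes tested rose and 5.18% fell. At T30, 24 rose and 2 fell, against 24.1% and 4.07% of all genes. At T60, 20 rose and 3 fell, against 26.9% and 4.61%. The median change was 0.42 on the log2 scale at T15, where the median over all genes was 0.17. At T30 the medians were 0.66 and 0.62, and at T60 they were 0.66 and 0.65. Called here means an adjusted p under 0.05 in a limma fit of log2(RPKM + 1) over all 12 groups, with Benjamini-Hochberg adjustment over all genes tested and no minimum fold. All 3 comparisons share the T0 libraries. The 58 genes held together 0.946% to 1.17% of the summed RPKM in the WT T0 libraries, 1.29% to 1.54% at T15, 1.42% to 1.46% at T30 and 1.31% to 1.38% at T60, and every later library lay above T0. RNA was measured in bulk, so a lower amount of RNA in each cell and fewer cells with it cannot be told apart.

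These counts moved with the scaling of the libraries. With median-ratio scaling, 11 genes rose and 2 fell at T15, 9 rose and 3 fell at T30, and 6 rose and 5 fell at T60. Over all genes median-ratio scaling gave 14%, 13.6% and 13.2% rises and 9.09%, 8.57% and 11% falls. Under quantile normalization the rises numbered 13, 8 and 7 and the falls 4, 3 and 3, where 11.3%, 8.9% and 9.56% of all genes rose and 8.78%, 7.34% and 9.87% fell. Single libraries moved them too. The T15 count of rises was 7 without WT T0 replicate 1 and 5 without WT T15 replicate 3, and the T30 count was 13 without WT T30 replicate 1. The T60 count was 11 without WT T0 replicate 1, 8 and 9 without WT T60 replicates 1 and 2, and 35 without WT T60 replicate 3, while the falls at T60 numbered 1 without replicate 1 or 3 of WT T0 or replicate 1 or 2 of WT T60. Leaving out all 9 higher-median libraries gave 18 rises and 2 falls at both T15 and T30, and 1 rise and 0 falls at T60, where 1 WT library was left. Of the single-gene calls in WT, 6 of 15 at T15, 5 of 26 at T30 and 0 of 23 at T60 were kept under all 12 alternatives. Those kept at T15 were the rises of GLN4, GCD14, EFT1 and TIF3 and the falls of PAS_chr2-1_0314 and PAS_chr1-3_0204, and those kept at T30 were the rises of GCD14, GCN20 and ARC1 and the same pair of falls.

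**Figure D2:**
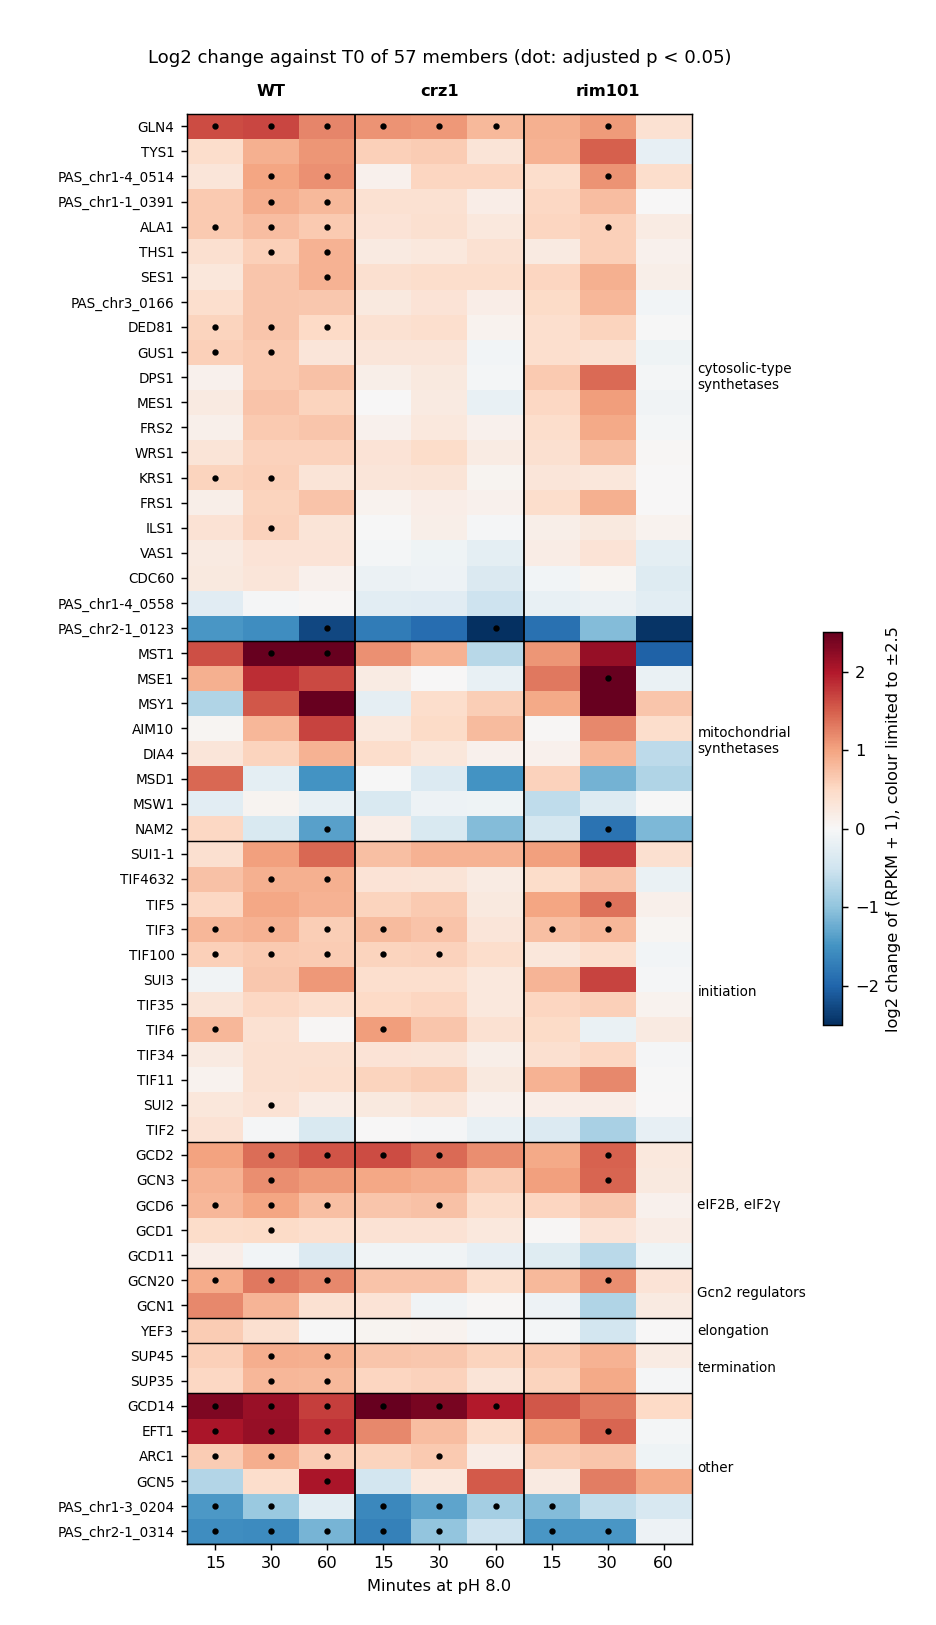
Change against T0 of log2(RPKM + 1) for the 57 genes tested, by strain and minutes at pH 8.0, with genes ordered by role and by their mean WT change and the colour limited to 2.5 either way. A dot marks an adjusted p under 0.05 (limma); WT T30 holds 24 rises and 2 falls, and rim101 T60 holds neither.

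**Figure D3:**
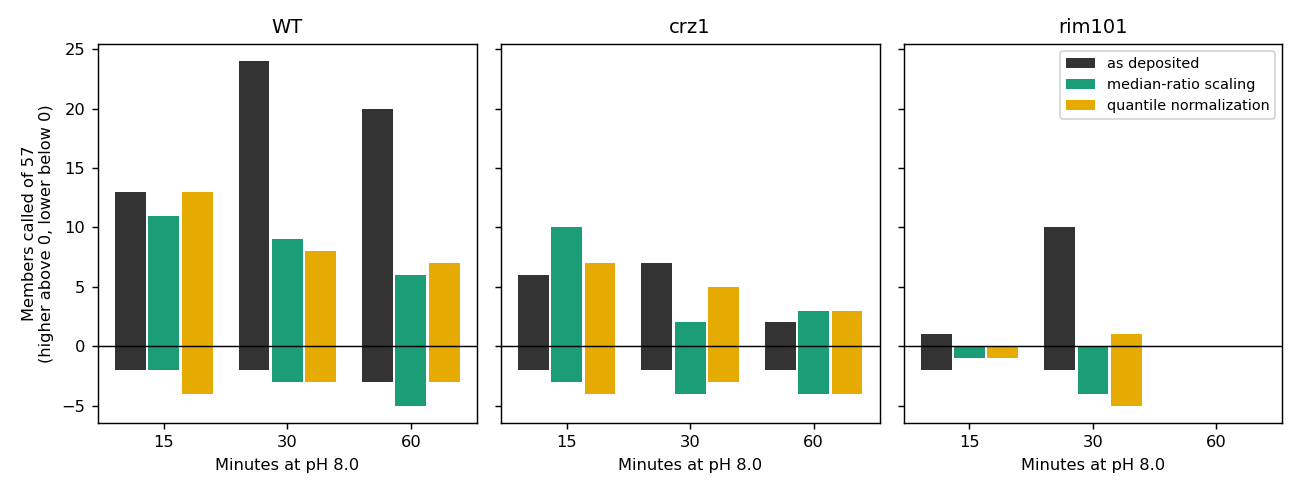
Number of the 57 genes tested that were called higher (bars above 0) and lower (bars below 0) than T0, by strain and minutes, with RPKM as deposited, median-ratio scaling and quantile normalization. In WT at T30 the rises number 24, 9 and 8 in that order.

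Among the cytosolic-type synthetases, 5 of 21 rose at T15, 9 at T30 and 7 at T60 in WT. The 1 that fell, at T60, was PAS_chr2-1_0123, whose compartment is not given. The shares that rose were 23.8%, 42.9% and 33.3%, against 13.4%, 24.1% and 26.9% of all genes. With median-ratio scaling the counts of rises were 3, 3 and 1. The largest rise was that of GLN4. Its WT values were 8.98, 8.80 and 10.3 RPKM at T0, 31.3, 23.6 and 40.5 at T15, 34.9, 32.3 and 28.7 at T30, and 25.1, 18.2 and 26.99 at T60. Every library at pH 8.0 was above every T0 library. The log2 change was 1.63 ± 0.264 (SE, adjusted p = 0.000106) at T15, 1.67 ± 0.264 (adjusted p = 6.84e-05) at T30 and 1.22 ± 0.264 (adjusted p = 0.00186) at T60 by limma. With quantile normalization the change was 0.81 at T30 and 0.24 at T60, and with median-ratio scaling 0.68 at T60, and these 3 did not pass. The gene lies on chromosome 3, from 562967 to 565384 on the plus strand in the authors' coordinates.

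ALA1, which charges alanine, rose at all 3 times. Its T15 call was lost without WT T0 replicate 2 or WT T15 replicate 3, which both gave 0.48. It was at 73.9, 56.0 and 87.1 RPKM at T0 and at 129, 120 and 118 RPKM at T30, with no overlap, and changed by 0.77 ± 0.174 on the log2 scale (limma adjusted p = 0.00215). DED81, for asparagine, rose at all 3 times as well, from 140, 169 and 177 RPKM to 284, 265 and 237 RPKM at T30, a change of 0.69 ± 0.183 (limma adjusted p = 0.0069). Neither passed at T30 with median-ratio scaling, which gave 0.25 for ALA1 and 0.17 for DED81, and it turned the DED81 change at T60 from 0.49 to -0.10. The DED81 call at T15 was lost without WT T0 replicate 1 (0.47) or WT T15 replicate 3 (0.39), and the call at T60 without any 1 library but WT T60 replicate 3, at 0.39 to 0.56.

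Further rises came at T30 and T60. PAS_chr1-1_0391, a prolyl-tRNA synthetase, has its start 455 bases from that of DED81 on the other strand of chromosome 1. It was at 72.2, 70.0 and 85.2 RPKM at T0 and at 175, 144 and 114 RPKM at T30, all above, with a change of 0.90 ± 0.256 (limma adjusted p = 0.011), and at 0.76 did not pass without WT T30 replicate 1. PAS_chr1-4_0514, for cysteine, was at 21.7, 16.2 and 20.4 RPKM at T0 and at 49.3, 56.6 and 30.1 RPKM at T60. It changed by 1.14 ± 0.316 at T60 (limma adjusted p = 0.01), and the higher-median WT T60 replicates 1 and 2 held the upper values. Without the higher-median libraries the change was 0.62, and without WT T60 replicate 1 or 2 it was 1.06 or 0.96, and none of these passed. THS1, for threonine, was at 125, 97.8 and 128 RPKM at T0 and at 221, 239 and 184 RPKM at T60, all above, with a change of 0.88 ± 0.192 (limma adjusted p = 0.00217), which median-ratio scaling took to 0.29. Without the higher-median libraries, which leaves WT T60 replicate 3 alone, the THS1 call was not kept. GUS1 for glutamate and KRS1 for lysine, named after their values were seen, rose at T15 and T30 by 0.56 to 0.66 on the log2 scale, and median-ratio scaling left 0.06 to 0.45, which did not pass. The GUS1 call at T15 was lost without WT T15 replicate 3 (0.43).

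FRS1 and FRS2, the beta and alpha subunits of the cytosolic phenylalanyl-tRNA synthetase, kept a level near each other. Their RPKM ratio ran from 0.855 to 1.22 over all 32 libraries, with a median of 1.05, and neither was called in WT at any time. PAS_chr2-1_0123, a further isoleucyl-tRNA synthetase by description whose compartment is not given, was lowest at T60. It was listed at 12.4, 0 and 7.35 RPKM in WT at T0 and at 0 in all 3 WT libraries at T60. In crz1 it was at 20.3, 13.3 and 9.91 RPKM at T0 and at 0, 0.312 and 0 RPKM at T60, with no overlap. It fell at T60 in both strains. The change on the log2(RPKM + 1) scale was -2.27 ± 0.837 in WT (limma adjusted p = 0.0434) and -3.77 ± 0.837 in crz1 (limma adjusted p = 0.00285). The WT call was lost without any 1 library but WT T0 replicate 2, at -1.53 to -2.27, and the crz1 call was kept under all alternatives. ILS1, the named isoleucyl-tRNA synthetase, was at 95.2 ± 18.9 RPKM in WT at T0.

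Of the 8 mitochondrial synthetases tested, 0 were called in WT at T15 (0 at an unadjusted p under 0.05 by limma as well), 1 rose at T30, and 1 rose and 1 fell at T60. Over all genes 13.4%, 24.1% and 26.9% rose and 5.18%, 4.07% and 4.61% fell at the successive times. With 8 genes, these counts cannot be set apart from those shares. MST1, for threonine, was at 2.99, 0 and 0.393 RPKM at T0, at 22.7, 7.66 and 5.52 RPKM at T30 and at 20.2, 22.4 and 5.70 RPKM at T60. The later values were all above T0, and the highest at each time came from higher-median libraries. The change on the log2(RPKM + 1) scale was 2.64 ± 0.888 at T30 (limma adjusted p = 0.0294) and 3.07 ± 0.888 at T60 (limma adjusted p = 0.0133). Without the higher-median libraries these were 2.09 and 1.92 and did not pass. The T30 call was also lost without WT T0 replicate 2 (2.22) or 3 (2.46) or WT T30 replicate 1 (2.09) or 2 (2.81), and the T60 call without WT T60 replicate 1 (2.82) or 2 (2.75).

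MSY1, for tyrosine, differed most between library types within a time. In WT it was at 48.5 RPKM in the higher-median T30 library and at 7.46 and 1.14 RPKM in the others, and at 57.9 and 50.5 RPKM in the higher-median T60 libraries and 1.57 RPKM in the other. It passed in no WT comparison with T0. MSE1, for glutamate, was at 0, 0.992 and 0 RPKM in WT at T0 and at 5.89, 8.20 and 0 RPKM at T60, and was not called in WT. NAM2, the mitochondrial leucyl-tRNA synthetase, which in S. cerevisiae also helps mitochondrial introns to splice, was named after its values were seen. It was at 18.3, 11.8 and 16.9 RPKM at T0 and at 3.09, 2.94 and 15.1 RPKM at T60. It fell by 1.36 ± 0.499 on the log2 scale (limma adjusted p = 0.0421), the low pair being the higher-median libraries, and without those libraries the change was -0.03. The call was lost without WT T0 replicate 1 (-1.24) or 3 (-1.30) or WT T60 replicate 1 (-1.04) or 2 (-1.01).

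The 6 groups that hold both library types allow the types to be set against each other within a group. On the log2(RPKM + 1) scale the higher-median libraries stood 0.537 above the others in the median over all genes. MSY1 stood 3.76 above, MST1 2.03, MSE1 1.84 and SUI3 1.82, each higher in 6 of 6 groups. MSD1, the mitochondrial aspartyl-tRNA synthetase, stood at -2.04, NAM2 at -1.12, TIF2 at -0.94 and YEF3 at -0.69, each lower in 6 of 6 groups. GLN4 at 0.08, KRS1 at -0.0025 and SUI2 at 0.03 hardly differed in the mean. These libraries were picked by their median level, so the differences are a description. What sets the types apart was not tested.

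**Figure D4:**
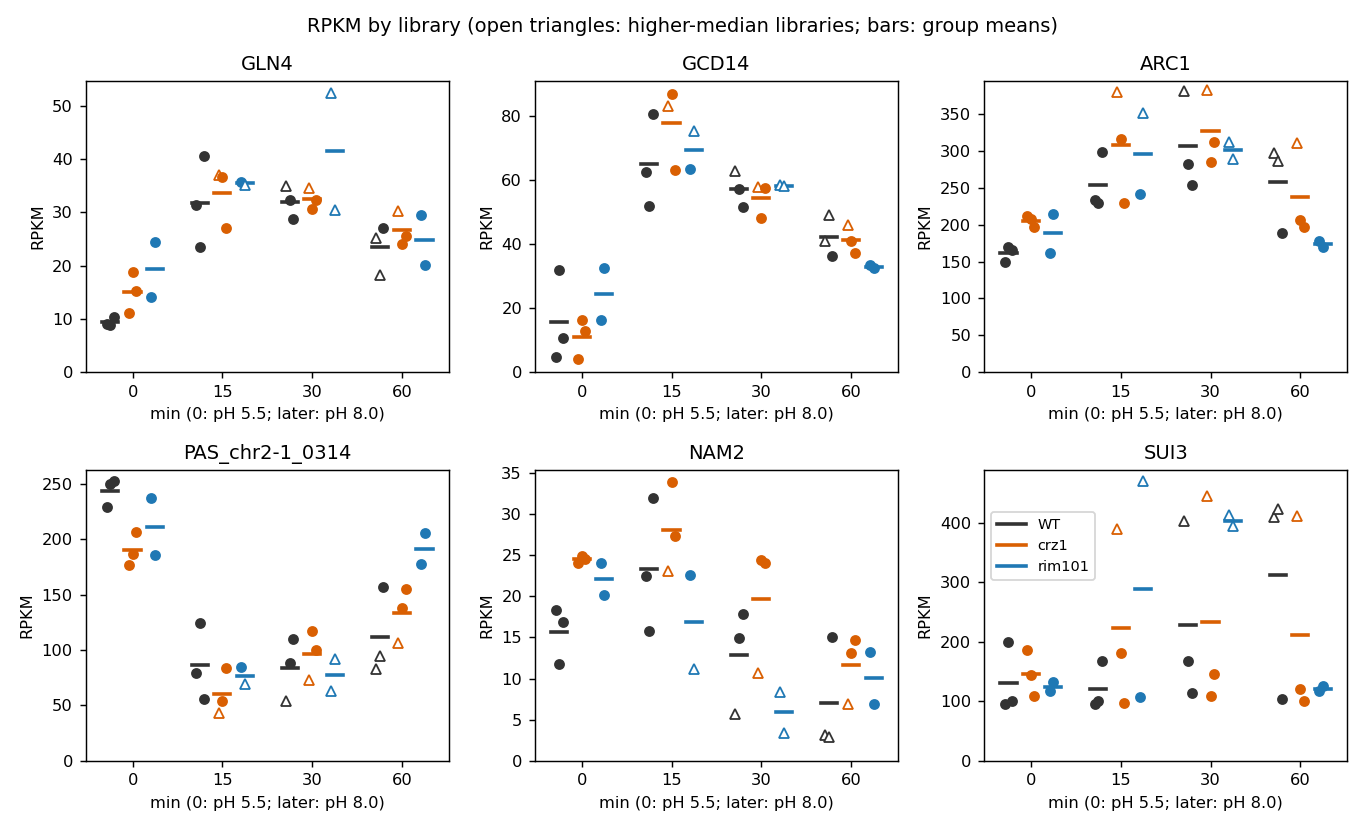
RPKM in each library for 6 genes by time and strain, with open triangles for the 9 higher-median libraries, filled circles for the other 23 and bars for group means. At T15 and T30 both kinds of library lie above the T0 libraries of their strain for GLN4 and GCD14 and below them for PAS_chr2-1_0314, while SUI3 at T60 in WT is at 410 and 423 RPKM in triangles and at 104 RPKM in the circle.

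Of the 12 initiation factors, 3 rose at T15, 4 at T30 and 3 at T60 in WT, and 0 fell. The shares that rose were 25%, 33.3% and 25%, above those of all genes at T15 and T30 and below at T60. With median-ratio scaling the rises numbered 1, 0 and 0. TIF3, which encodes eIF4B, a partner of the helicase eIF4A, was at 189, 235 and 224 RPKM at T0 and at 373, 346 and 431 RPKM at T15. The groups did not overlap, and the change was 0.83 ± 0.163 (limma adjusted p = 0.000759). It rose at T30 by 0.86 and at T60 by 0.61, and with median-ratio scaling these were 0.34 and 0.02 and did not pass. TIF100, by its description the eIF3 subunit D, was at 111, 119 and 144 RPKM at T0 and at 203, 195 and 190 RPKM at T30. It rose at all 3 times, by 0.60, 0.66 and 0.63 with an SE of 0.163 (limma adjusted p = 0.0111, 0.00462 and 0.0069), and passed at none of them with median-ratio scaling. Its T15 call was lost without WT T0 replicate 1 (0.52) or WT T15 replicate 3 (0.45).

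TIF4632, the eIF4G scaffold of the cap-binding complex, was at 70.7, 39.6 and 93.6 RPKM at T0 and at 151, 111 and 100 RPKM at T30, all above. It rose by 0.89 ± 0.292 at T30 (limma adjusted p = 0.0268) and by 0.89 at T60 (limma adjusted p = 0.0258), and both calls were lost with either scaling. Leaving out WT T0 replicate 2 ended both calls (0.55 each), as did leaving out WT T30 replicate 1 for T30 (0.71) and WT T60 replicate 1 (0.82) or 2 (0.83) for T60. TIF5, for eIF5, which triggers GTP hydrolysis by eIF2, was at 92.5, 162 and 111 RPKM at T0 and at 363, 219 and 158 RPKM at T30 and was not called in WT. SUI1-1 was at 310, 890 and 327 RPKM at T0 and at 1848, 1723 and 572 RPKM at T60, which overlap, and was not called either. TIF2 and YEF3, the most abundant of these mRNAs, were not called in any comparison of a time with T0. YEF3 in WT was at 1867, 1289 and 2282 RPKM at T0, at 2748, 2812 and 2674 RPKM at T15 and at 1446, 1469 and 2537 RPKM at T60. The T15 libraries lay above T0, yet the change of 0.64 ± 0.281 did not pass (limma adjusted p = 0.127), and at T60 the groups overlapped.

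Of the subunits of eIF2, 1 was called in WT, at T30, and no difference between subunits was tested. SUI2, eIF2 alpha and the target of Gcn2, was at 299, 400 and 319 RPKM at T0 and at 430, 444 and 416 RPKM at T30. It rose at T30 by 0.35 ± 0.119 (limma adjusted p = 0.0294), while median-ratio scaling gave -0.17. The call was lost without WT T0 replicate 1 (0.27) or 3 (0.31) or WT T30 replicate 1 (0.35) or 2 (0.33). SUI3, eIF2 beta, was at 95.3, 199 and 100 RPKM at T0 and at 410, 423 and 104 RPKM at T60, and was not called. GCD11, eIF2 gamma, was at 499, 437 and 586 RPKM at T0 and at 349, 341 and 534 RPKM at T60, a change of -0.33 that did not pass. The ratio of SUI3 to SUI2 in the WT T60 libraries was 1.06 in both higher-median ones and 0.281 in the other, and over all 32 libraries it ran from 0.234 to 1.14.

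For eIF2B, counted together with eIF2 gamma, 1 of 5 genes rose at T15, 4 at T30 and 2 at T60 in WT. As shares these were 20%, 80% and 40%, against 13.4%, 24.1% and 26.9% of all genes. GCD6, the catalytic epsilon subunit, was at 21.5, 37.2 and 28.5 RPKM at T0 and at 65.3, 60.0 and 47.3 RPKM at T30, with no overlap. It rose at all 3 times, by 0.82, 0.98 and 0.76 with an SE of 0.265 (limma adjusted p = 0.0312, 0.00815 and 0.0341). Its calls were lost without WT T0 replicate 1 at each time (0.63, 0.79 and 0.57), and at T15 without WT T15 replicate 3 (0.61) and at T15 and T60 without WT T0 replicate 3 (0.83 and 0.76) or, at T60, without WT T60 replicate 1 (0.65) or 2 (0.72). GCD2, the delta subunit, was at 12.1, 22.3 and 14.1 RPKM at T0, at 64.3, 41.4 and 29.2 RPKM at T30 and at 67.9, 57.1 and 29.6 RPKM at T60. It rose by 1.40 ± 0.42 at T30 (limma adjusted p = 0.016) and by 1.58 ± 0.42 at T60 (limma adjusted p = 0.00793), and without the higher-median libraries the T60 change was 0.88 and did not pass. The T30 call of GCD2 was lost without WT T0 replicate 1 (1.22) or 3 (1.33) or WT T30 replicate 1 (1.11), and its T60 call without WT T60 replicate 1 (1.34). GCN3, the alpha subunit, rose at T30 by 1.16 ± 0.42 (limma adjusted p = 0.041), from 15.6, 41.8 and 21.0 RPKM to 79.0, 49.7 and 42.3 RPKM. GCD1, the gamma subunit, rose at T30 by 0.47 ± 0.172 (limma adjusted p = 0.0448), from 23.7, 29.4 and 26.8 RPKM to 37.2, 40.02 and 34.3 RPKM. The GCD6, GCN3 and GCD1 calls at T30 were lost with either scaling, and GCD1 then stood at -0.04 and -0.18. Leaving out WT T0 replicate 1 or 3 or WT T30 replicate 1 or 2 also ended the calls of GCN3 (0.87 to 1.23) and GCD1 (0.39 to 0.48). GCN3 and GCD1 each overlap a gene on the opposite strand, and the libraries carry no strand, so their reads cannot be told from those of that neighbour.

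GCN20 rose in WT at all 3 times. It was at 15.5, 18.7 and 23.3 RPKM at T0 and at 62.6, 48.7 and 37.6 RPKM at T30, well apart. The change was 0.93 ± 0.302 at T15 (limma adjusted p = 0.0325), 1.32 at T30 (limma adjusted p = 0.00252) and 1.20 at T60 (limma adjusted p = 0.00568), all with an SE of 0.302. The T15 call was lost without WT T0 replicate 1 (0.80) or 2 (0.93) or WT T15 replicate 3 (0.69), and the T60 change was 0.40 with quantile normalization and 0.75 without the higher-median libraries and did not pass. Its partner GCN1 was at 11.8, 5.55 and 20.6 RPKM at T0 and at 25.9, 31.5 and 24.95 RPKM at T15. The groups did not overlap, but the change of 1.21 ± 0.47 did not pass (limma adjusted p = 0.0776). GCN4, the transcription factor whose translation this pathway controls in S. cerevisiae, is not counted here. Its mRNA was called in no comparison with T0 in WT, and rose from T15 to T60 by 0.64 ± 0.211 (limma adjusted p = 0.0415).

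Both release factors rose at T30 and T60. SUP45, eRF1, which reads the stop codon, was at 112, 185 and 141 RPKM at T0 and at 343, 268 and 209 RPKM at T30. The change was 0.90 ± 0.274 at T30 (limma adjusted p = 0.0171) and 0.90 at T60 (limma adjusted p = 0.0181). SUP35, its GTPase partner eRF3, was at 65.1, 74.5 and 82.8 RPKM at T0 and at 175, 124 and 105 RPKM at T30, a change of 0.82 ± 0.298 (limma adjusted p = 0.0411). In both genes every T30 library was above every T0 library. Median-ratio scaling gave 0.38 for SUP45 and 0.30 for SUP35 at T30, and neither passed. The SUP45 call at T30 was lost without WT T0 replicate 1 or WT T30 replicate 1 (0.72 each), and the SUP35 call at T30 without any 1 library but WT T30 replicate 3 (0.62 to 0.91). At T60 SUP45 was lost without any 1 library but WT T0 replicate 2 and WT T60 replicate 3 (0.72 to 0.89), and SUP35 without any but WT T60 replicate 3 (0.69 to 0.90).

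Both falls in WT at T15 and at T30 were of genes that are no synthetases themselves. PAS_chr2-1_0314, on chromosome 2 from 588280 to 588885 on the minus strand, has the same description as ARC1, a protein that binds tRNA together with the methionyl- and glutamyl-tRNA synthetases Mes1 and Gus1. It was at 229, 249 and 252 RPKM in WT at T0, at 79.2, 124 and 55.9 RPKM at T15, at 53.6, 88.6 and 110 RPKM at T30 and at 82.8, 94.9 and 157 RPKM at T60. No library at pH 8.0 reached the T0 range. It fell by 1.56 ± 0.298 at T15 (limma adjusted p = 0.000605), 1.58 at T30 (limma adjusted p = 0.000441) and 1.17 at T60 (limma adjusted p = 0.00619). Without the higher-median libraries the T60 change was -0.63 and did not pass.

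ARC1 moved the other way, from 149, 170 and 165 RPKM at T0 to 233, 229 and 299 RPKM at T15 and 382, 282 and 254 RPKM at T30, with no overlap. It rose by 0.64 ± 0.218 at T15 (limma adjusted p = 0.0422), by 0.90 at T30 (limma adjusted p = 0.00381) and by 0.64 at T60 (limma adjusted p = 0.0293), and the T15 call was lost without any 1 of its 6 libraries (0.52 to 0.71). The T60 call was lost without WT T0 replicate 1 (0.59) or 3 (0.66) or WT T60 replicate 1 (0.53) or 2 (0.55), and the change was 0.06 with median-ratio scaling. The ratio of ARC1 to PAS_chr2-1_0314 within a library is the same under any constant scaling of that library. In WT it was between 0.652 and 0.683 at T0, between 1.85 and 5.35 at T15, between 2.32 and 7.13 at T30 and between 1.21 and 3.60 at T60. The higher-median libraries held the largest ratios at T30 and T60, and the other WT libraries alone were at 2.32 and 3.19 at T30 and at 1.21 at T60, still above T0. In crz1 it went from 0.955 to 1.20 at T0 to between 2.74 and 8.82 at T15, and in rim101 from 0.681 and 1.16 at T0 to 2.87 and 5.10 at T15 and back to 0.823 and 1.00 at T60. The ratio was described and not tested.

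**Figure D5:**
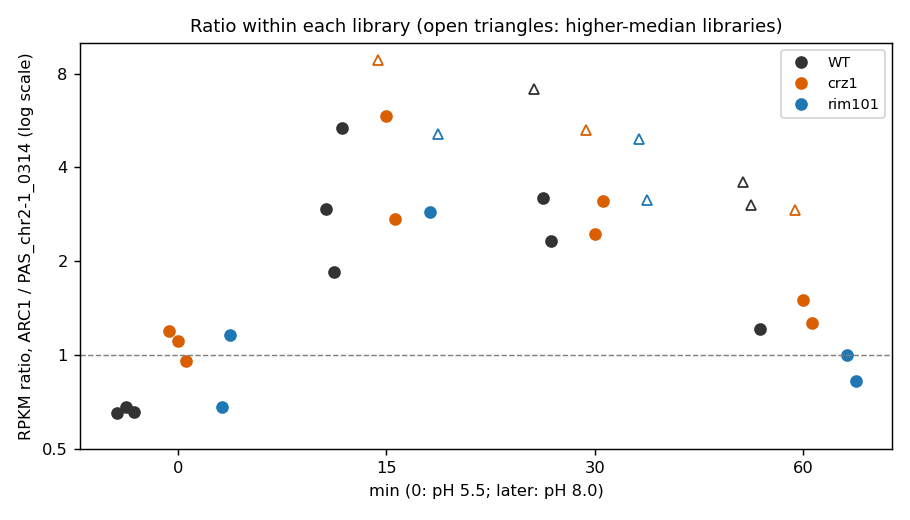
Ratio of ARC1 to PAS_chr2-1_0314 in RPKM (log axis) in each of the 32 libraries by time and strain, with open triangles for the higher-median libraries and a dashed line at equal levels. All T15 and T30 libraries lie above the T0 libraries of their strain, and the rim101 T60 libraries, at 0.823 and 1.00, lie among those of rim101 T0.

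PAS_chr1-3_0204, a protein with the N-terminal domain of an alanyl-tRNA synthetase, fell early and rose again from T15 to T60. It was at 63.3, 40.8 and 56.1 RPKM in WT at T0, at 20.5, 18.8 and 17.4 RPKM at T15, at 30.1, 30.9 and 21.3 RPKM at T30 and at 44.1, 57.5 and 32.3 RPKM at T60. T15 and T30 lay wholly below T0, and T60 overlapped it. It fell by 1.43 ± 0.233 at T15 (limma adjusted p = 0.000116) and by 0.93 at T30 (limma adjusted p = 0.00483), and from T15 to T60 it rose by 1.16 ± 0.233 (limma adjusted p = 0.00154). That later rise was 0.61 with quantile normalization and 0.75 without the higher-median libraries and then did not pass. The T60 change of -0.27 passed with median-ratio scaling, at -0.85.

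GCD14, the catalytic subunit of the enzyme that methylates adenine 58 of tRNAs, including the initiator tRNA in S. cerevisiae, showed a large rise. It was at 4.70, 32.01 and 10.6 RPKM in WT at T0, at 62.5, 51.9 and 80.6 RPKM at T15, at 62.8, 57.2 and 51.6 RPKM at T30 and at 41.1, 49.2 and 36.2 RPKM at T60. WT T0 replicate 2 was the high library at T0, and all later libraries were above it. The change was 2.33 ± 0.434 at T15 (limma adjusted p = 0.000465), 2.16 at T30 (limma adjusted p = 0.000783) and 1.73 at T60 (limma adjusted p = 0.00579). The T60 call was lost with either scaling, without WT T0 replicate 1 (1.13) and without the higher-median libraries, which leaves WT T60 replicate 3 alone. EFT1, which carries the symbol of an elongation factor but is described as the GTPase of the U5 small nuclear ribonucleoprotein of splicing, was at 2.02, 0.364 and 2.87 RPKM at T0 and at 8.45, 7.73 and 12.6 RPKM at T15. It changed by 2.05 ± 0.441 (limma adjusted p = 0.00168) at T15, and it also rose at T30 by 2.17 and at T60 by 1.82. With quantile normalization the later changes were 0.64 and 0.27 and did not pass. Nor was the EFT1 call at T60 kept without the higher-median libraries.

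GCN5, a histone acetyltransferase, was at 4.99, 13.5 and 6.71 RPKM in WT at T0, at 2.52, 3.75 and 7.88 RPKM at T15 and at 46.5, 43.7 and 21.1 RPKM at T60. The T60 libraries stood above those of T0 and T15. The change was 2.04 ± 0.587 from T0 to T60 (limma adjusted p = 0.0129) and 2.77 ± 0.587 from T15 to T60 (limma adjusted p = 0.00257), and the second was kept under all 12 alternatives. The first was 1.34 without the higher-median libraries, 1.77 without WT T0 replicate 1, and 1.84 and 1.89 when replicate 1 or 2 of WT T60 was left out, and none of these passed. Between T15 and T60, where pH stayed the same, 2 of the 57 genes rose and 1, NAM2, fell, against 11.8% and 4.33% of all genes. Leaving out WT T60 replicate 3 made this 9 and 6, and leaving out WT T15 replicate 3 gave 6 rises. Without WT T60 replicate 1 or 2 the falls numbered 0, and NAM2 changed by -1.56 or -1.53.

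In the mutants fewer of these genes were called. At T60 the higher-median libraries were replicates 1 and 2 in WT, replicate 1 in crz1 and none in rim101, so library type and strain are mixed there. In crz1, 6 rose and 2 fell at T15 (14.6% and 8.33% of all genes), 7 rose and 2 fell at T30 (16.8% and 5.28%), and 2 rose and 2 fell at T60 (12.4% and 5.4%). In rim101, with 2 libraries a group, 1 rose and 2 fell at T15 (5.47% and 2.7%), 10 rose and 2 fell at T30 (23.5% and 4.64%), and 0 were called at T60 (2.72% and 1.14%), where limma gave 1 gene at an unadjusted p under 0.05. With median-ratio scaling rim101 at T30 had 0 rises and 4 falls. In crz1 that scaling gave rises of 10, 2 and 3 and falls of 3, 4 and 4 at the successive times, and quantile normalization gave rises of 7, 5 and 3 and falls of 4, 3 and 4. With quantile normalization rim101 had 1 rise and 5 falls at T30, and with either scaling 0 rises and 1 fall at T15. The rim101 T30 rises numbered 0 without rim101 T0 replicate 1 or rim101 T30 replicate 1, and those in crz1 at T15 numbered 15 without crz1 T15 replicate 3. In crz1 at T30 they were 3 without crz1 T0 replicate 1 or crz1 T30 replicate 1 and 4 without crz1 T0 replicate 3, and the falls were 1 without crz1 T0 replicate 3 or crz1 T30 replicate 1. At rim101 T15 the rises were 0 without rim101 T0 replicate 1 or rim101 T15 replicate 2, and the rim101 T30 rises were 5 and 2 without the second library of T0 or T30. The falls in rim101 at T15 and T30 numbered 0 or 1 without any 1 of the libraries compared. In crz1 at T60 the rises were 4 without crz1 T0 replicate 2 and 1 without any other library but crz1 T60 replicate 3, and the falls were 1 without crz1 T0 replicate 1 or crz1 T60 replicate 2.

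Some of the genes with large changes in WT were called in crz1 too. GCD14 was at 4.16, 16.2 and 12.8 RPKM in crz1 at T0 and at 83.3, 86.8 and 63.0 RPKM at T15, and rose by 2.87 ± 0.434 (limma adjusted p = 3.68e-05), then by 2.37 at T30 and 1.98 at T60. GLN4 was at 11.0, 18.9 and 15.3 RPKM in crz1 at T0 and at 37.0, 36.7 and 27.03 RPKM at T15, and rose by 1.12 ± 0.264 (limma adjusted p = 0.00276), by 1.09 at T30 and by 0.80 at T60. The GLN4 call at T60 was lost without any 1 crz1 library but T0 replicate 2 (0.61 to 0.87). Quantile normalization ended the GLN4 calls at all 3 times, and median-ratio scaling ended those at T30 and T60. PAS_chr2-1_0314 went from 177, 187 and 206 RPKM to 43.1, 53.9 and 83.7 RPKM at T15, and fell by 1.69 ± 0.298 (limma adjusted p = 0.000186). PAS_chr1-3_0204 went from 70.6, 58.8 and 63.5 RPKM to 21.1, 17.1 and 22.5 RPKM, and fell by 1.62 ± 0.233 (limma adjusted p = 1.97e-05). GCD2, TIF3 and TIF100 rose in crz1 at T15 and T30. The T15 calls of GCD2 and TIF3 were kept under all alternatives. The TIF100 call was lost under 6 alternatives at T15 and 5 at T30, and the GCD2 call under 3 at T30. These include the removal of single libraries. At T30 median-ratio scaling left 0 initiation factors higher in crz1, so the TIF3 and TIF100 calls were lost there. Others with large WT changes were not called in crz1 against T0 at any time. EFT1 changed there by 1.21 ± 0.441 at T15 (limma adjusted p = 0.0504), 0.76 at T30 and 0.44 at T60. GCN5 changed by 1.53 ± 0.587 at T60 (limma adjusted p = 0.0763), and MST1 by -0.69 ± 0.888 at T60 (limma adjusted p = 0.675).

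In rim101, PAS_chr2-1_0314 went from 237 and 186 RPKM at T0 to 84.3 and 68.9 RPKM at T15, 63.4 and 91.8 RPKM at T30 and 177 and 206 RPKM at T60. It fell by 1.45 ± 0.365 at T15 (limma adjusted p = 0.0129) and by 1.45 at T30 (limma adjusted p = 0.00823), and T60 overlapped T0. Without rim101 T0 replicate 1 the change was -1.27 at both times, and without rim101 T15 replicate 2 or rim101 T30 replicate 1 it was -1.31 or -1.18, and none of these passed. GLN4 was at 14.2 and 24.4 RPKM at T0 and at 52.5 and 30.5 RPKM at T30, a change of 1.06 ± 0.323 (limma adjusted p = 0.0233), which median-ratio scaling took to 0.32 and quantile normalization to 0.02. It was also lost without rim101 T0 replicate 1 (0.69) or rim101 T30 replicate 1 (0.68). GCD14 was at 16.1 and 32.6 RPKM at T0 and at 63.5 and 75.3 RPKM at T15, with no overlap, but the change of 1.55 did not pass (limma adjusted p = 0.0758). Both rim101 T30 libraries are of the higher-median type, so type and time cannot be told apart there.

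Between either mutant and WT at T0, limma called 0 of the 57 genes in each direction, where 0.0237% and 0.0473% of all genes were higher and lower in crz1, and 0.0473% and 0.071% in rim101. At an unadjusted p under 0.05 there were 14 such genes in crz1 and 4 in rim101. The share of all genes at that threshold was not counted, so these numbers do not set the 57 genes apart. Both mutants leaned up against the same WT T0 libraries. In each, 53 of 57 differences were positive, with a median of 0.39 against 0.18 over all genes in crz1 and of 0.26 against 0.15 in rim101. How many of all genes were positive was not counted. GLN4, for example, was 0.61 ± 0.264 above WT in crz1 (limma adjusted p = 0.648) and 0.93 ± 0.295 above WT in rim101 (limma adjusted p = 0.767), with every mutant library above the 3 WT libraries at T0.

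The difference in response, the change of a mutant since T0 minus that of WT, was tested in the same fit, and limma called 0 of the 57 genes in all 6 tests. Over all genes, 0% were higher and 0% to 0.0237% lower in crz1. In rim101, 0.237%, 0.45% and 0.355% were higher and 0.213%, 0.331% and 0.213% lower at the successive times. At an unadjusted p under 0.05 there were 0, 1 and 3 of the 57 genes for crz1 and 0, 1 and 9 for rim101 at T15, T30 and T60. The shares of all genes above are for the adjusted p. No such share was counted for the unadjusted p, so these numbers do not set the 57 genes apart. For GLN4 the difference was -0.51 ± 0.373 in crz1 and -0.74 ± 0.417 in rim101 at T15, and for GCD14 it was 0.54 ± 0.614 and -0.78 ± 0.687. The lowest adjusted p in rim101 at T60 belonged to MST1, with a difference of -5.10 ± 1.40 (limma adjusted p = 0.172). It was at 20.2 and 22.4 RPKM in the higher-median WT T60 libraries and at 5.70 RPKM in the other. In rim101 at T60 it was at 0.611 and 0.346 RPKM, and neither library is of the higher-median type. Library type and strain are therefore mixed in the rim101 differences at T60. The SEs of these tests are of the size of many changes in the set. A p that misses the threshold therefore does not show that the strains responded alike. All strain differences share the WT libraries.

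The authors' deposited table compares every group with WT T0, also those of the mutants. In WT it called fewer of these genes. At its FDR under 0.05 it lists GLN4 and GCD14 as higher and PAS_chr1-3_0204 and PAS_chr2-1_0314 as lower in WT at T15, with log2 changes of 1.58, 1.92, -1.63 and -1.57. At T30 and T60 the authors' deposited table has 0 of the 58 genes higher in WT, and those lower are PAS_chr1-3_0204 and PAS_chr2-1_0314 at T30 and PAS_chr2-1_0123 and PAS_chr2-1_0314 at T60. Over all genes the authors' deposited table has 217 higher and 151 lower at T15, 164 and 165 at T30, and 85 and 132 at T60 in WT. For rim101 at T30 against WT T0 the authors' deposited table has 4 of the 58 genes higher and 8 lower, with 717 and 732 over all genes, a contrast that mixes strain and time.

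Neighbouring steps of translation outside the set were read from lists of symbols. Of 41 genes for tRNA modification and processing tested, 17 rose and 0 fell at T15 in WT, 22 rose and 1 fell at T30, and 21 rose and 1 fell at T60, with median changes of 1.36, 1.60 and 1.72. The shares that rose were 41.5%, 53.7% and 51.2%, against 13.4%, 24.1% and 26.9% of all genes. UBA4, the gene that fell at T60, changed by -4.25 ± 0.858 (limma adjusted p = 0.00105). ELP3, the catalytic subunit of Elongator, which modifies the wobble base of tRNAs, changed by 3.34 ± 0.649 at T15 (limma adjusted p = 0.00068). Of 21 other cytosolic translation factors, 5 rose and 0 fell at each time, among them NIP1, an eIF3 subunit, with 0.73 ± 0.166 at T15 (limma adjusted p = 0.0027). That is 23.8% each time, which is above the share of all genes at T15 and at or below it at T30 and T60. Of 8 mitochondrial translation factors, 1 rose at each time and 1 fell at T60. A list of 8 genes is too small to set these counts apart from the shares of all genes. These lists were chosen with results of these data known, and the counts are descriptions. They are for RPKM as deposited, and counts under other scalings or without single libraries are not given for these lists.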

How the data were processed

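RNA of 32 samples was sequenced from poly-A-selected libraries that carry no strand, per the labels' protocols. The authors deposited RPKM per gene and library, and a table of p-values and FDR with log2 ratios of each group over WT T0, made by the authors. Bowtie2 and edgeR are named in the submitters' processing notes, without versions or roles. The genome build and settings are not given in the sources used here, and the coordinates of all 58 genes equal those of the RefSeq table for assembly ASM2700v1. No counts were used, so depth came from the steps of low values, of which 94.2% to 97.5% lay within 0.1 of a whole read.

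Genes with a mean of at least 1 RPKM (4226) were tested on log2(RPKM + 1) with limma 3.58.1 in R 4.3.3, with a mean-variance trend and 1 mean per group. Fold changes on this scale understate those of low genes. The script was tested on simulated data, and tables and plots came from Python 3.11.15 with numpy 2.4.6, pandas 2.3.3 and matplotlib 3.10.9. Alternatives were a pseudocount of 0.25, no filter, median-ratio scaling, quantile normalization, a replicate block, leaving out the 9 libraries with a median above 40 RPKM, and leaving out each library.

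Genes were named where WT called them at 2 or more times (up to 6 per role and direction), where they were among the 3 with the largest mean WT change in a role, and for eIF2, eIF2B, Gcn2 regulators, YEF3, EFT1, the release factors, GCD14 and GCN5 always. NAM2, TIF2, GUS1, KRS1, ILS1, SES1, TYS1, DPS1, WRS1, CDC60, FRS1, FRS2, MSD1, MSW1, DIA4, AIM10 and MSK1 fall outside this and were named after their values were seen. AIM10 was placed among the mitochondrial synthetases after its description was read. Members and lists were chosen with earlier results of these data known.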

Additional observations from a re-analysis of the deposited data

How the results depend on the processing

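The pseudocount of 0.25 moved no count of the 57 genes by over 1.5 times, and without the filter the falls from WT T15 to T60 became 2. Median-ratio scaling gave 9 rises in WT at T30, 6 rises and 5 falls in WT at T60, 10 rises in crz1 at T15, 2 rises and 4 falls in crz1 at T30, 4 falls in crz1 at T60, 0 rises and 1 fall in rim101 at T15, 0 rises and 4 falls in rim101 at T30, and 7 falls from WT T15 to T60. Quantile normalization gave 4 falls in WT at T15, 8 rises at T30 and 7 at T60, 4 falls in crz1 at T15 and at T60, 0 rises and 1 fall in rim101 at T15, 1 rise and 5 falls in rim101 at T30, and 1 rise and 7 falls from WT T15 to T60. Directions turned for ALA1 in rim101 at T30 (-0.16 and -0.19 under the respective scalings), GCD1 in WT at T30 (-0.04 and -0.18), DED81 in WT at T60 (-0.10, median-ratio) and SUI2 in WT at T30 (-0.17, median-ratio). The cause was not tested.

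Without the higher-median libraries there were 1 rise and 0 falls in WT at T60, 1 rise in crz1 at T60, 0 rises in rim101 at T15, and 1 rise and 0 falls from WT T15 to T60; rim101 at T30 then had no library. Leaving out each library in turn gave 5 to 13 rises and 2 to 3 falls in WT at T15, 13 to 27 and 2 to 3 at T30, and 8 to 35 and 1 to 3 at T60. In crz1 it gave 4 to 15 rises and 2 falls at T15, 3 to 7 and 1 to 2 at T30, and 1 to 4 and 1 to 2 at T60. In rim101 it gave 0 to 2 rises and 0 to 1 falls at T15, 0 to 5 and 0 to 1 at T30, and 0 at T60, and from WT T15 to T60 2 to 9 rises and 0 to 6 falls. Where 1 rim101 library was left, it is assumed to vary like the other groups. The strain differences at T0 and in response had 0 calls under all alternatives that left out a library.

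Same-numbered libraries did not deviate together in every pair (r from -0.821 to 0.903 over 160 pairs, 83 over 0.1), so the numbers were not taken as pairs, although 21 of 32 libraries correlated best with their own number. With the replicate block, rises in rim101 at T30 became 22, and from WT T15 to T60 there were 4 rises and 4 falls; all 103 single-gene calls were kept. Depth of 4.95 M to 16.5 M reads limits most the mitochondrial synthetases, several of which were listed at 0.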
